A study of Rattus norvegicus with 18 samples.

Results

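Fos, Jun, Egr1, Atf3, Myc, Nr4a1 and Dusp1 are immediate early and stress response genes, and their RNA was measured in rat heart. They were chosen by their Ensembl identifiers from the 37262 genes of the files, and a gene was to be dropped if it stayed under 1 FPKM in every library. All 7 were present and all 7 were kept. FPKM is a fragment count scaled to gene length and library total, and the unit was inferred from the values because the file headers do not name it. The names are those paired with the identifiers when the genes were chosen: Fos is ENSRNOG00000008015, Jun is ENSRNOG00000026293, Egr1 is ENSRNOG00000019422, Atf3 is ENSRNOG00000003745, Myc is ENSRNOG00000004500, Nr4a1 is ENSRNOG00000007607 and Dusp1 is ENSRNOG00000003977. The files themselves hold identifiers without names.

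The 18 libraries were made from heart RNA depleted of rRNA and fell into 3 groups of 6. The first group was QDG-treated SHR, the second SHR without QDG, and the third WKY. SHR is the spontaneously hypertensive rat, a strain whose blood pressure rises with age, and WKY, the Wistar-Kyoto rat, has normal blood pressure and is its customary comparator. By the series' design text the SHR without QDG were given NS, and whether WKY were also given NS is not clear from that text, so NS and strain cannot be told apart there. NS and QDG are not spelled out in the labels, and dose, duration, age and sex are not stated in them. Because the labels tie no library to its own animal, the p-values reflect how far these libraries spread, which may be technical. Bulk heart RNA mixes muscle cells with vessel, connective tissue and immune cells, and a change in the number of cells of a type and a change in RNA per cell cannot be told apart. With identifiers that carry no names, heart muscle markers and markers of other cells were not looked up.

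Immediate early genes are transcribed within minutes of a stimulus, from factors already present in the cell, and their RNAs are short-lived. Kinase cascades act on the factors SRF and CREB, which bind the CArG box and the cyclic AMP response element (CRE) in their promoters. In heart muscle these genes are known to respond to pressure overload, stretch, catecholamines and ischaemia. Fos and Jun are basic leucine zipper proteins that pair to form the factor AP-1, and Atf3 is a stress-induced member of the same wider family. Egr1 is a zinc finger factor, Nr4a1 an orphan nuclear receptor (Nur77), and Myc a factor of cell growth. Dusp1 is a phosphatase that removes the activating phosphates from MAP kinases and so limits the cascade that induces it.

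Promoter sequences are shown for Egr1, Nr4a1 and Dusp1, which were all higher in QDG-treated SHR than in WKY, as described further on, and which the RefSeq promoter table (assembly GRCr8) holds. All 7 genes matched a RefSeq gene by symbol, and 3 of the 7 had a promoter in that table. Each sequence is 300 bases of the plus strand, 250 before the gene's start and 50 from it. Capitals mark the CRE core (TGACG, or CGTCA on the other strand) and CArG boxes. The windows are chr18:26736828-26737127 for Egr1, chr7:134259888-134260187 for Nr4a1 and chr10:17184603-17184902 for Dusp1.
Egr1: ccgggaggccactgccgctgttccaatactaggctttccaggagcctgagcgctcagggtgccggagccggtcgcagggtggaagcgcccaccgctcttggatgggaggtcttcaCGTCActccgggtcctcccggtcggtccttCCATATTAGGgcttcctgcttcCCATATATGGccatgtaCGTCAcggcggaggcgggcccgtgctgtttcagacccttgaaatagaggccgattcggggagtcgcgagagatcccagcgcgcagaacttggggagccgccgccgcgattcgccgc
Nr4a1: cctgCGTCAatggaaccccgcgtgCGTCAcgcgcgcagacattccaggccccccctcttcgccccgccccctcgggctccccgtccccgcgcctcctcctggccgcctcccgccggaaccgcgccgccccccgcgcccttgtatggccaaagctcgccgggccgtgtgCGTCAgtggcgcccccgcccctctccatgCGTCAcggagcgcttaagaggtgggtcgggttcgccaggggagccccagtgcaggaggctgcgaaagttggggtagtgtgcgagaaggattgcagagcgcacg
Dusp1: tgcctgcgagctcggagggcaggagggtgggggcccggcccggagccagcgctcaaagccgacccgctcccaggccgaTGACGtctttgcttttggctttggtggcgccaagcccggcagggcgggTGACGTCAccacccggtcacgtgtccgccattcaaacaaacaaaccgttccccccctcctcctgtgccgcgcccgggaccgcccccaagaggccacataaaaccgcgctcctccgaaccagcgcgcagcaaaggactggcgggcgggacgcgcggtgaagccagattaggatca

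The CRE core TGACG occurred in all 3 promoters, on either strand. Nr4a1 had 4 of them, Dusp1 had 3 and Egr1 had 2. Of the 33469 promoters in the table, 21.2% held at least 1, 4.96% at least 2 and 0.236% at least 4. The full CRE, TGACGTCA, was present in Dusp1 alone of the 3 and begins at base -124, with -1 the base just before the start. It reads the same on both strands and so also counts as 2 of the cores of Dusp1. Over all promoters 1.83% held it. Egr1 alone of the 3 held CArG boxes, 2 of them, beginning at bases -105 and -83. At least 1 CArG box was found in 1.64% of all promoters and at least 2 in 0.021%. The AP-1 site TGANTCA, held by 7.33% of promoters, was found in 0 of the 3. The E-box CACGTG, the site of Myc family proteins, was found once, in Dusp1, and in 6.42% of all promoters. These matches describe letters in a fixed window.

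Levels between genes are compared here in FPKM, which is per length. Dusp1 was the highest of the 7 genes in 18 of 18 libraries and Jun was the second in 18 of 18. Over all libraries Dusp1 averaged 68.0 FPKM, above 95.6% of the 17397 genes kept for testing (at least 1 FPKM in at least 6 libraries). Jun averaged 35.7 FPKM, above 91.6% of them. Nr4a1 averaged 8.15 and Egr1 7.84 FPKM. These neighbours did not separate, with Nr4a1 above Egr1 in 9 of 18 libraries. Fos averaged 4.57 FPKM and lay below both in 18 of 18 libraries. Atf3 averaged 3.05 and Myc 2.12 FPKM, which left Myc above 25.2% of genes kept, and Atf3 was above Myc in 15 of 18 libraries. Jun exceeded its AP-1 partner Fos in every library, by a median ratio of 5.51 in QDG-treated SHR (1.96 to 8.31), 9.97 in SHR (3.96 to 20.2) and 19.5 in WKY (16.4 to 58.4).

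**Figure D1:**
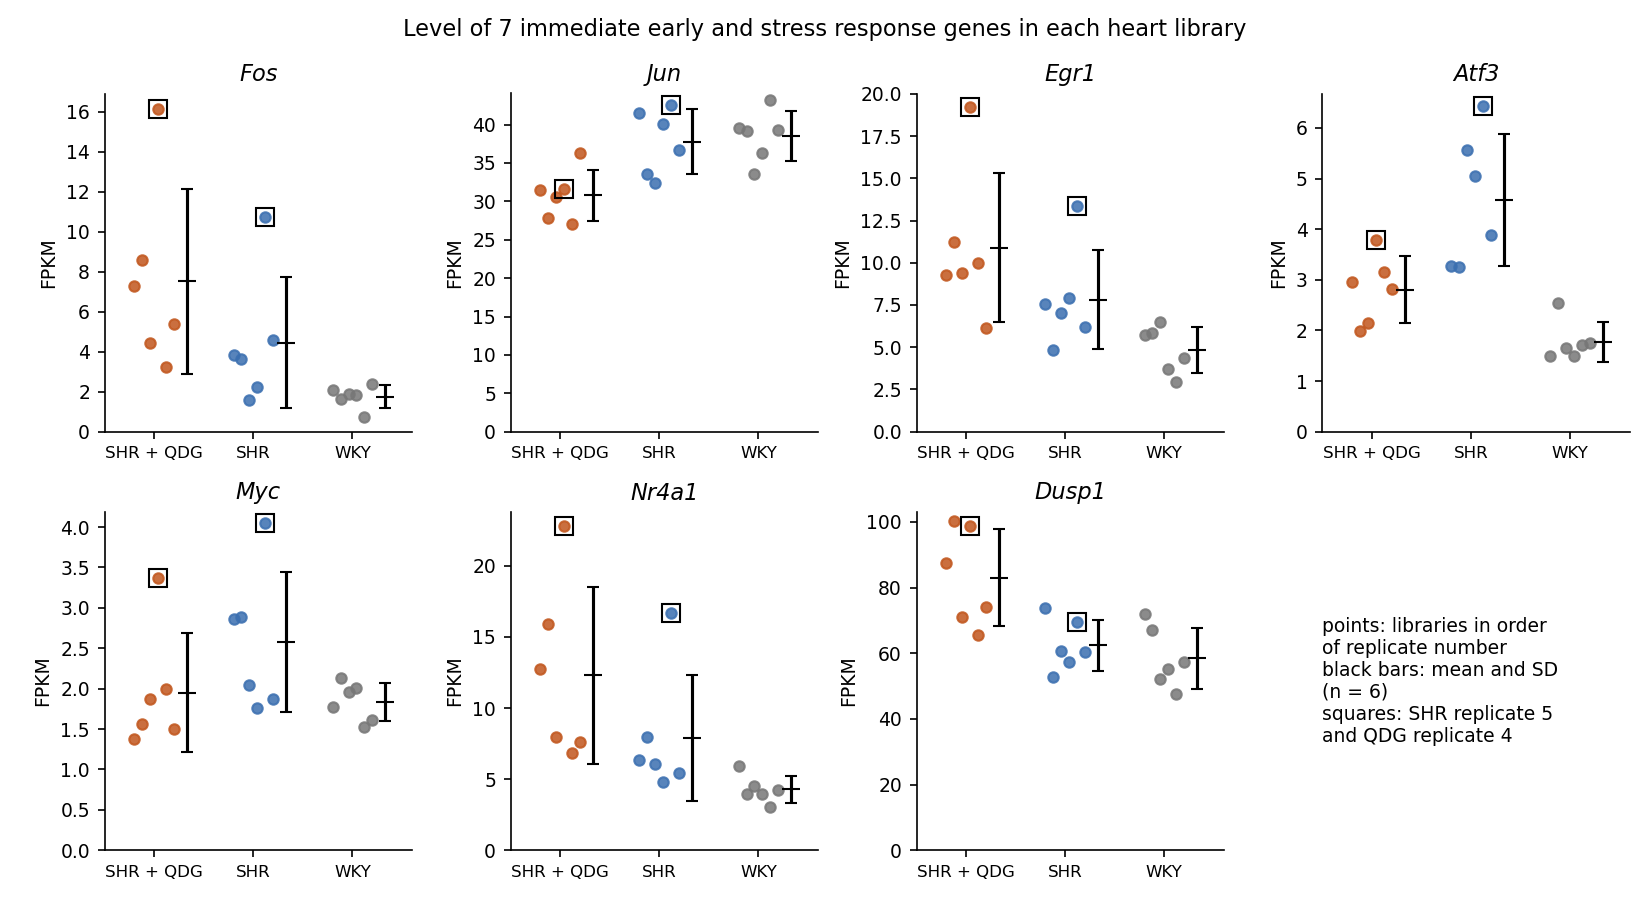
FPKM of each of the 7 genes (vertical axis, linear from 0) in 18 libraries, with QDG-treated SHR left, SHR in the middle and WKY right. Points are libraries, black bars the mean and SD of 6, and squares mark QDG replicate 4 and SHR replicate 5, which carry the highest Fos of their groups at 16.1 FPKM in QDG-treated SHR and 10.8 FPKM in SHR.

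Treated hypertensive hearts were set against normotensive hearts in the comparison of QDG-treated SHR with WKY. Fos, Egr1, Nr4a1, Dusp1 and Atf3 were higher in QDG-treated SHR and Jun was lower, so that 6 of the 7 genes passed the test. Over all genes tested 20.9% passed in this comparison, 11.7% higher and 9.20% lower. The test was limma on log2(FPKM + 1) with Benjamini-Hochberg adjustment over 17397 genes and a threshold of 0.05, and fold changes below are on that scale, which understates the change of genes with low values. The median log2 fold change was 0.49 over the 7 genes and 0.01 over all genes tested.

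Fos, the AP-1 subunit, ranged from 3.25 to 16.1 FPKM in QDG-treated SHR with a median of 6.34, and from 0.741 to 2.40 FPKM in WKY with a median of 1.85. All 6 QDG-treated libraries lay above all 6 WKY libraries. The means were 7.52 ± 4.64 and 1.76 ± 0.563 FPKM (SD, n = 6 each), a ratio of 4.28. The log2 fold change was 1.5, with SE 0.35 (limma adjusted p = 0.00448). Nr4a1, the nuclear receptor, ranged from 6.82 to 22.8 FPKM in QDG-treated SHR with a median of 10.3, and from 3.0 to 5.92 FPKM in WKY with a median of 4.10. These groups did not overlap either. The means were 12.3 ± 6.24 and 4.27 ± 0.960 FPKM (SD, n = 6 each), with a log2 fold change of 1.23 with SE 0.29 (limma adjusted p = 0.00473). Over all genes tested, groups that did not overlap were found for 10.4%, and among the 7 genes for these 2.

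Egr1, the zinc finger factor, ranged from 6.16 to 19.2 FPKM in QDG-treated SHR with a median of 9.70, and from 2.96 to 6.51 FPKM in WKY with a median of 5.03. Of the treated libraries 5 of 6 lay above every WKY library. The log2 fold change was 0.99 (SE 0.23, limma adjusted p = 0.00527), for means of 10.9 ± 4.41 and 4.84 ± 1.38 FPKM (SD, n = 6 each). Dusp1, the MAP kinase phosphatase, ranged from 65.7 to 100.4 FPKM in QDG-treated SHR with a median of 80.9, and from 47.4 to 72.0 FPKM in WKY with a median of 56.3. Its groups overlapped, with 4 of 6 treated libraries above every WKY library. The log2 fold change was 0.49 (SE 0.12, limma adjusted p = 0.00475).

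Atf3, the stress-induced zipper protein, ranged from 2.0 to 3.79 FPKM in QDG-treated SHR with a median of 2.88, and from 1.49 to 2.54 FPKM in WKY with a median of 1.68. Here 4 of 6 treated libraries lay above every WKY library, and the log2 fold change was 0.45 (SE 0.14, limma adjusted p = 0.0303). This call was lost on leaving out QDG replicate 1, 4, 5 or 6 or WKY replicate 1, 3, 4 or 6, with adjusted p up to 0.0750 (without QDG replicate 4). Jun, the other AP-1 subunit, moved the opposite way to Fos. It ranged from 27.0 to 36.2 FPKM in QDG-treated SHR with a median of 31.0, and from 33.5 to 43.2 FPKM in WKY with a median of 39.2. Of the treated libraries 5 of 6 lay below every WKY library, and the log2 fold change was -0.32 (SE 0.08, limma adjusted p = 0.00675). Myc was at 1.38 to 3.37 FPKM in QDG-treated SHR and at 1.52 to 2.13 FPKM in WKY. Its log2 fold change was 0.03, with a 95% confidence interval from -0.28 to 0.34 (limma adjusted p = 0.927).

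**Figure D2:**
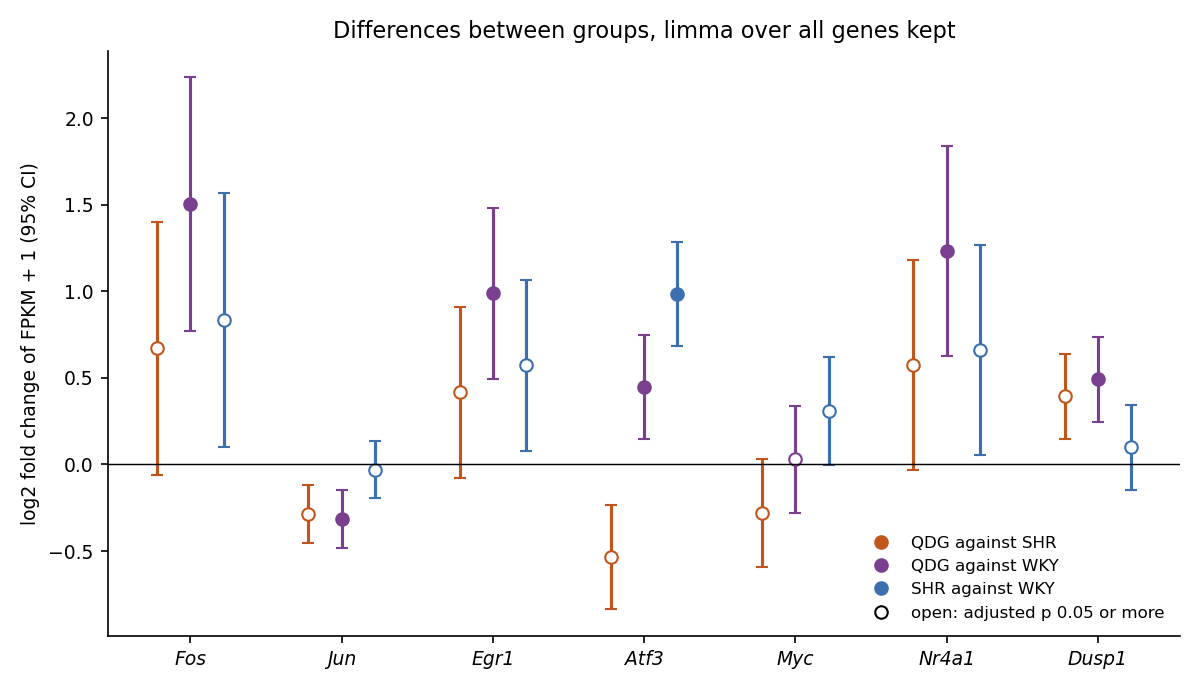
Log2 fold change of FPKM + 1 (vertical axis, points) with its 95% confidence interval (bars) for the 7 genes in 3 comparisons, filled where the adjusted p is under 0.05. Filled points are 6 for QDG-treated SHR against WKY, 1 for SHR against WKY and 0 for QDG-treated SHR against SHR.

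The strain comparison set SHR without QDG against WKY. Of the 7 genes 1, Atf3, passed, higher in SHR, where 24.8% of all genes tested passed in either direction and 12.2% were higher. Atf3 ranged from 3.25 to 6.43 FPKM in SHR with a median of 4.46, against 1.49 to 2.54 FPKM in WKY with a median of 1.68. All 6 SHR libraries lay above all 6 WKY libraries, a separation found for 12.5% of all genes tested. The means were 4.58 ± 1.31 and 1.77 ± 0.392 FPKM (SD, n = 6 each), a ratio of 2.58. On the log2 scale Atf3 was 0.98 higher, with SE 0.14 (limma adjusted p = 3.95e-05). The adjusted p of Atf3 stayed between 2.29e-05 and 0.00025 in every setting that tested it.

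At an unadjusted p under 0.05 there were Atf3, Fos, Egr1 and Nr4a1, 4 of the 7, where 35.8% of all genes lay under that limit. Fos, Egr1 and Nr4a1 had positive fold changes in SHR that did not pass after adjustment. Fos ranged from 1.61 to 10.8 FPKM in SHR with a median of 3.75, with a log2 fold change against WKY of 0.83 with SE 0.35 (limma adjusted p = 0.0916). Egr1 ranged from 4.82 to 13.4 FPKM in SHR with a median of 7.28, a log2 fold change of 0.57 with SE 0.23 (limma adjusted p = 0.0865). Nr4a1 ranged from 4.79 to 16.7 FPKM in SHR with a median of 6.21, a log2 fold change of 0.66 with SE 0.29 (limma adjusted p = 0.107). In each of these 3 genes 4 of 6 SHR libraries lay above every WKY library. Fos passed without SHR replicate 3 (adjusted p = 0.0456), and Egr1 without SHR replicate 2 or QDG replicate 4 (adjusted p = 0.0495 and 0.0442). Without SHR replicate 5 the log2 fold change was 0.58 for Fos, 0.44 for Nr4a1, 0.42 for Egr1 and 0.20 for Myc. Myc ranged from 1.77 to 4.05 FPKM in SHR, with a log2 fold change of 0.31 and a 95% confidence interval from -0.0024 to 0.62 (limma adjusted p = 0.143). Dusp1 ranged from 52.7 to 73.8 FPKM in SHR (log2 fold change 0.10, limma adjusted p = 0.593; 0.04 to 0.16 with 1 library left out). Jun ranged from 32.4 to 42.5 FPKM in SHR (log2 fold change -0.03, limma adjusted p = 0.822), with a 95% confidence interval from -0.20 to 0.14.

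Within the hypertensive strain, QDG-treated SHR were set against SHR. Here 0 of the 7 genes passed limma's test after adjustment, and 0.293% of all genes tested passed. Without adjustment, Jun, Atf3 and Dusp1 (3 of the 7) had p under 0.05, as had 10.4% of all genes. The groups overlapped in all 7 genes, and they did not overlap in 1.15% of all genes tested. Atf3 averaged 2.81 ± 0.664 FPKM in QDG-treated SHR and 4.58 ± 1.31 in SHR (SD, n = 6 each). The treated libraries of Atf3 lay below every SHR library in 5 of 6 cases, with a log2 fold change of -0.54 with SE 0.14 (limma adjusted p = 0.148). Jun averaged 30.8 ± 3.29 FPKM in QDG-treated SHR and 37.8 ± 4.23 in SHR (SD, n = 6 each). It too lay below every SHR library in 5 of 6 treated libraries, with a log2 fold change of -0.29 with SE 0.08 (limma adjusted p = 0.163). Dusp1 averaged 82.9 ± 14.8 FPKM in QDG-treated SHR and 62.4 ± 7.83 in SHR (SD, n = 6 each). It was above every SHR library in 4 of 6 treated libraries, with a log2 fold change of 0.39 with SE 0.12 (limma adjusted p = 0.204). Over the settings run, adjusted p ranged from 0.0883 to 0.281 for Atf3, from 0.0798 to 0.305 for Jun and from 0.0948 to 0.356 for Dusp1.

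For the other 4 genes the intervals of the treatment difference included 0. Fos averaged 7.52 ± 4.64 FPKM in QDG-treated SHR and 4.45 ± 3.28 in SHR (SD, n = 6 each), and its log2 fold change of 0.67 had a 95% confidence interval from -0.06 to 1.4. Nr4a1 averaged 12.3 ± 6.24 FPKM in QDG-treated SHR and 7.89 ± 4.44 in SHR (SD, n = 6 each), and its log2 fold change of 0.57 had an interval from -0.03 to 1.18. Egr1 had a log2 fold change of 0.42 with an interval from -0.08 to 0.91. Myc averaged 1.95 ± 0.736 FPKM in QDG-treated SHR and 2.58 ± 0.868 in SHR (SD, n = 6 each). Its log2 fold change was -0.28 with an interval from -0.59 to 0.03. The intervals of Fos and Nr4a1 include changes of more than 2-fold on this scale. Single libraries moved these differences: without QDG replicate 4 the log2 fold change was 0.44 for Fos, 0.38 for Nr4a1 and 0.25 for Egr1, and without SHR replicate 5 it was -0.17 for Myc.

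The 3 comparisons share libraries, and their fold changes are therefore not independent. By group means, Fos, Egr1, Nr4a1 and Dusp1 were highest in QDG-treated SHR, next in SHR and lowest in WKY, an order held by 20.2% of all genes kept. Atf3 and Myc were highest in SHR, as were 27.5% of all genes. Jun was lowest in QDG-treated SHR and highest in WKY, an order held by 15.3%. Fos, Egr1, Nr4a1, Dusp1 and Jun passed the threshold for QDG-treated SHR against WKY. They missed it in both steps, QDG-treated SHR against SHR and SHR against WKY. The share of all genes with this pattern of calls was not computed. Of all genes tested, 20.9% passed for QDG-treated SHR against WKY, 0.293% for QDG-treated SHR against SHR and 24.8% for SHR against WKY.

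The spread between libraries of 1 group was large for Fos, Nr4a1 and Egr1. The coefficient of variation of Fos was 61.7% in QDG-treated SHR, 73.8% in SHR and 32.0% in WKY. Nr4a1 varied by 50.7%, 56.3% and 22.5% in the same groups, and Egr1 by 40.6%, 37.5% and 28.6%. The medians over all genes kept were 11.9%, 11.3% and 13.6%. The pooled standard deviation of log2(FPKM + 1) within groups was 0.63 for Fos, above that of 97.8% of genes kept. It was 0.52 for Nr4a1 (above 97.0%) and 0.43 for Egr1 (above 95.8%). Myc, Atf3 and Dusp1 stood at 0.28, 0.27 and 0.22, above 87.5%, 86.2% and 77.1% of genes. Jun, at 0.14, was near the median of 0.15 over all genes. Among the 1000 genes nearest to each in mean level, Fos exceeded 97.9%, Nr4a1 98.3%, Egr1 97.3% and Jun 68.5%. The coefficient of variation was lowest in WKY for 6 of the 7 genes, Dusp1 being the exception, and for 25.0% of all genes kept. This difference in spread between groups was not tested.

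**Figure D3:**
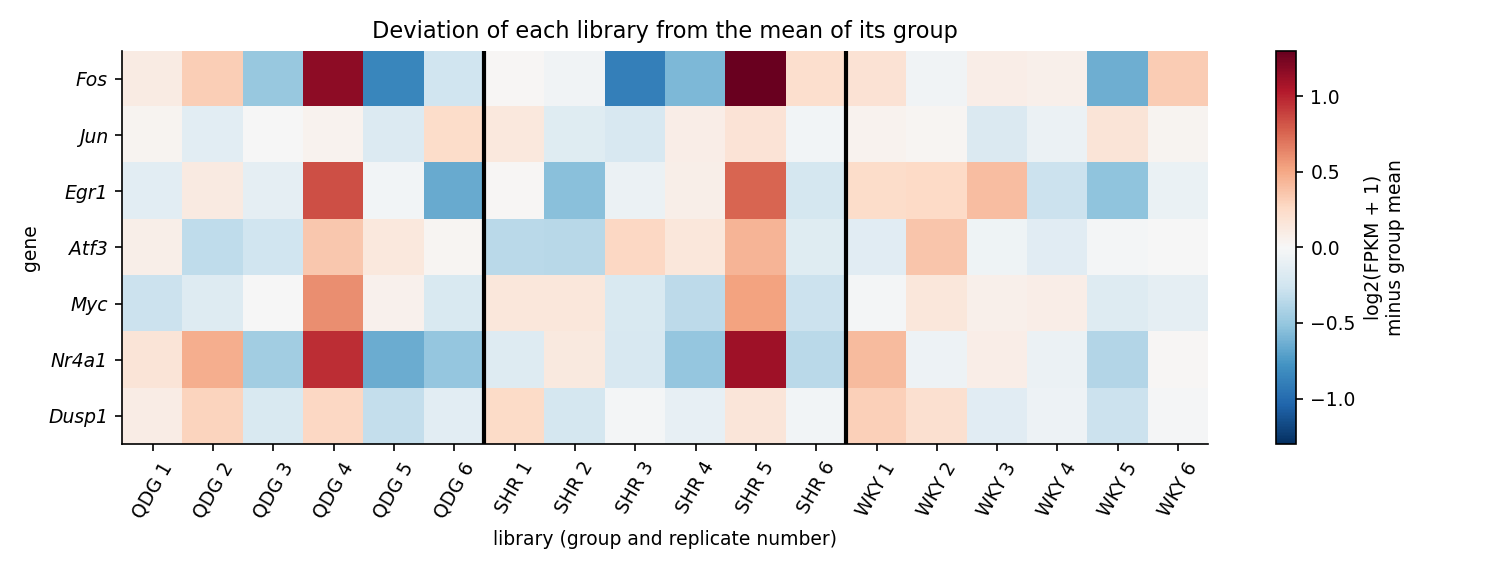
Log2(FPKM + 1) of each gene (rows) in each library (columns, QDG-treated SHR left, SHR in the middle, WKY right) minus the mean of its group, in colour from blue (lower) to red (higher). QDG replicate 4 and SHR replicate 5 are above their group mean in 7 of 7 genes, and WKY replicate 5 in 1 of 7. The share of all genes above the group mean in these libraries was not computed.

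SHR replicate 5 was the highest of its group in 6 of the 7 genes, the exception being Dusp1, and QDG replicate 4 was the highest of its group in 5 of the 7. SHR replicate 5 had 10.8 FPKM of Fos, where the other SHR libraries had 1.61 to 4.59, and 16.7 FPKM of Nr4a1, where the others had 4.79 to 7.96. QDG replicate 4 had 16.1 FPKM of Fos, where the other treated libraries had 3.25 to 8.59. At the other end, WKY replicate 5 was the lowest of its group in 5 of the 7 genes, with Fos at 0.741 FPKM, and QDG replicate 5 in 4 of the 7. The share of all genes that were highest or lowest of their group in these libraries was not computed, so these counts have no background. Depth relative to WKY replicate 1, taken from ratios of low values, was 0.879 for WKY replicate 5 and 0.900 for QDG replicate 4, the lowest of all libraries, and 1.01 for SHR replicate 5. The median log2(FPKM + 1) over genes kept was highest in QDG replicate 4, at 0.098 above the mean of the library medians. It was 0.020 above that mean in SHR replicate 5 and 0.0105 above it in WKY replicate 5. The part of depth or of such a shift in the levels of these single libraries was not tested. For the comparisons of groups, the library medians were also set equal (median centring). Then 6 of the 7 genes passed for QDG-treated SHR against WKY, 1 for SHR against WKY and 0 for QDG-treated SHR against SHR. Without both SHR replicate 5 and QDG replicate 4, the same numbers of the 7 genes passed as with all libraries: 6 for QDG-treated SHR against WKY, 1 for SHR against WKY and 0 for QDG-treated SHR against SHR. The log2 fold change of Fos against WKY was then 1.27 in QDG-treated SHR (limma adjusted p = 0.000931) and 0.58 in SHR (limma adjusted p = 0.0876).

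Correlation within groups was computed for the 21 pairs of genes on log2(FPKM + 1) minus the group mean over 18 libraries. The median Pearson r was 0.33 over these pairs and 0.088 over all pairs of genes kept. An r over 0.5 was found in 10 of the 21 pairs (47.6%) and in 8.95% of all pairs. Without SHR replicate 5 and QDG replicate 4, and with group means taken anew, 4 of the 21 pairs were over 0.5: Fos with Nr4a1, Fos with Dusp1, Nr4a1 with Dusp1 and Egr1 with Dusp1. With all libraries, all 10 pairs over 0.5 were among Fos, Egr1, Nr4a1, Myc, Dusp1 and Atf3. Jun had no r above 0.26 with any of the others. Genes share libraries and their scaling, so these shares are descriptions.

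Fos and Nr4a1 had the highest r of the 21 pairs, at 0.89 (permutation p within groups 0.00017), with a Spearman rho of 0.73 (permutation p = 0.0025). With Fos as a covariate beside the group means, limma ranked Nr4a1 first by p among all 17396 other genes, with a slope of 0.74 (95% confidence interval 0.54 to 0.94, adjusted p = 0.00655). That fit called 2 genes in all, or 0.0115%. The other was ENSRNOG00000009982, named here after its value was seen (adjusted p = 0.00655). With Nr4a1 as covariate Fos ranked first in turn (adjusted p = 0.00795), in a fit that called 3 genes (0.0172%). By r over the same 17396 genes, Nr4a1 stood in place 2 for Fos and Fos in place 4 for Nr4a1, and ENSRNOG00000009982 had an r of 0.92 with Fos. The call of Nr4a1 on Fos was lost without SHR replicate 5 (adjusted p = 0.111) or without QDG replicate 4 (adjusted p = 0.10), and without both the adjusted p was 0.443. The slope was then 0.56 with an interval from 0.24 to 0.89, and r was 0.70 with group means taken anew. Leaving out those libraries, the 2 farthest in Fos, without new group means gave an r of 0.73.

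The r of Fos and Nr4a1 was positive in each group. In QDG-treated SHR r was 0.97 (exact permutation p = 0.00278) and rho 0.94 (exact p = 0.0167). In SHR r was 0.83 (exact permutation p = 0.0569) and rho 0.49 (exact p = 0.356), and in WKY r was 0.76 (exact permutation p = 0.101) and rho 0.77 (exact p = 0.103). Without the 2 libraries farthest in Fos the r was 0.95, 0.43 and 0.87 in these groups, over 4 libraries each.

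**Figure D4:**
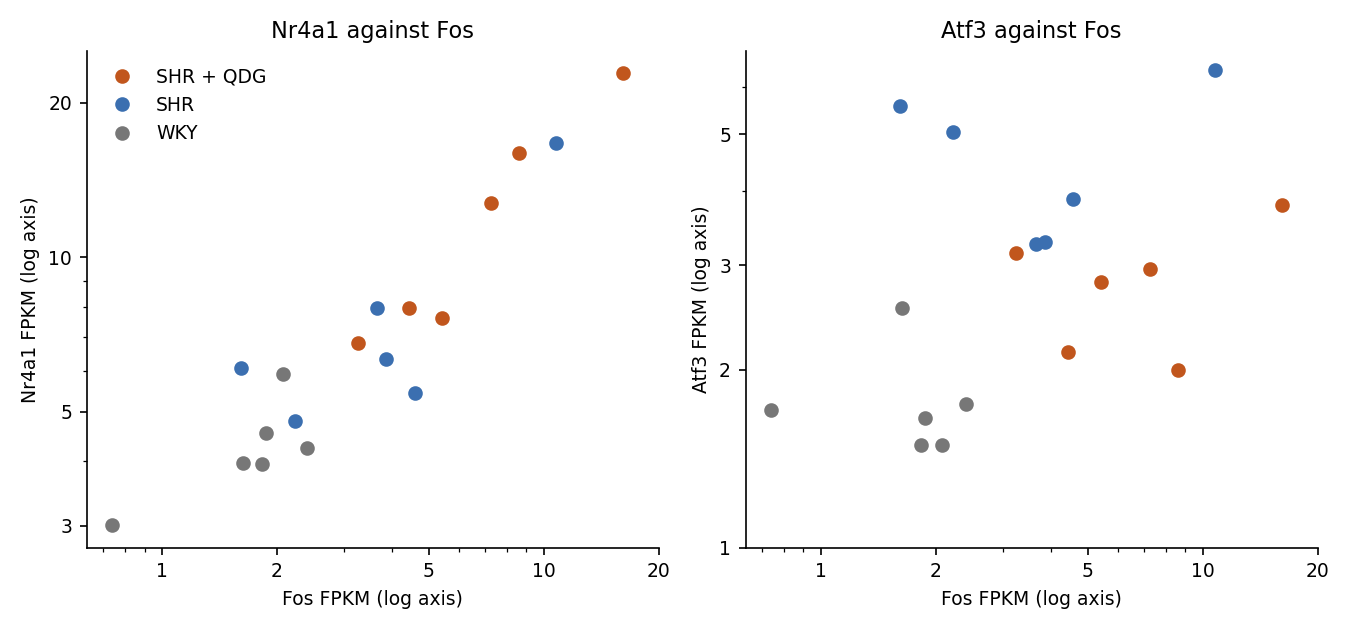
Nr4a1 (left) and Atf3 (right) against Fos in 18 libraries, in FPKM on log axes, coloured by group. Nr4a1 climbs with Fos across libraries (r within groups 0.89), and Atf3 shows a lower r with Fos within groups (0.20), with SHR libraries at 3.25 to 6.43 FPKM of Atf3.

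Dusp1 had an r of 0.64 with Fos (permutation p = 0.00503; rho 0.60, permutation p = 0.0190) and 0.68 with Nr4a1 (permutation p = 0.00373; rho 0.60, permutation p = 0.0188). Without SHR replicate 5 and QDG replicate 4, and with group means taken anew, the r of Dusp1 was 0.60 with Fos and 0.68 with Nr4a1. Fitted over all genes, Dusp1 did not pass with Fos as covariate (limma adjusted p = 0.162, rank 374 by p) or with Nr4a1 as covariate (limma adjusted p = 0.119, rank 243). In QDG-treated SHR alone r was 0.91 between Dusp1 and Fos (exact permutation p = 0.00972; rho 0.94, exact p = 0.0167) and 0.95 between Dusp1 and Nr4a1 (exact permutation p = 0.00972; rho 0.89, exact p = 0.0333). In SHR the r of Dusp1 was 0.46 with Fos (exact permutation p = 0.376; rho 0.37, exact p = 0.497) and 0.36 with Nr4a1 (exact permutation p = 0.51; rho 0.31, exact p = 0.564). In WKY it was 0.55 with Fos (exact permutation p = 0.268; rho 0.49, exact p = 0.356) and 0.74 with Nr4a1 (exact permutation p = 0.0861; rho 0.60, exact p = 0.242). Differences in r between groups were not tested. The p-values of pairs are not adjusted over the 21 pairs or over the 63 pairs by group. The only adjusted values are those of the fits over all genes.

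Egr1 and Myc had r of 0.64 and 0.65 with Fos (permutation p = 0.0127 and 0.0208), with rho of 0.35 and 0.12 (permutation p = 0.191 and 0.668). Over 18 libraries these r values depended on SHR replicate 5 and QDG replicate 4. Without them, and with group means taken anew, r was 0.15 for Egr1 and 0.02 for Myc. The same held between Egr1 and Nr4a1, with an r of 0.72 (permutation p = 0.00341; rho 0.47, permutation p = 0.0752) that became 0.32. Between Myc and Nr4a1 r was 0.67 over 18 libraries (permutation p = 0.012; rho 0.41, permutation p = 0.124). It was 0.08 without the same libraries and with group means taken anew. WKY holds neither of them, and there Egr1 had an r of 0.59 with Fos (exact permutation p = 0.214; rho 0.31, exact p = 0.564). With Nr4a1 it had 0.72 in WKY (exact permutation p = 0.0958; rho 0.71, exact p = 0.136). Without the 2 WKY libraries farthest in Fos the first was 0.05, and without the 2 farthest in Egr1 the second was 0.19. Myc and Fos had an r of 0.32 in WKY (exact permutation p = 0.621). Of the 63 pairs by group, Myc and Nr4a1 within SHR had an r of 0.92 (exact permutation p = 0.00139) and the same order of all 6 libraries (rho 1, exact p = 0.00278), and r was 0.80 without the 2 libraries farthest in Myc. Their r was 0.51 in QDG-treated SHR (exact permutation p = 0.294; rho 0.14, exact p = 0.803) and 0.25 in WKY (exact permutation p = 0.665; rho 0.09, exact p = 0.919). Atf3 had an r of 0.20 with Fos (permutation p = 0.511; rho -0.03, permutation p = 0.943). It was -0.55 without SHR replicate 5 and QDG replicate 4 and with group means taken anew. Over all 21 pairs the median r was 0.023 without them and with group means taken anew, against 0.33 with all libraries.

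**Figure D5:**
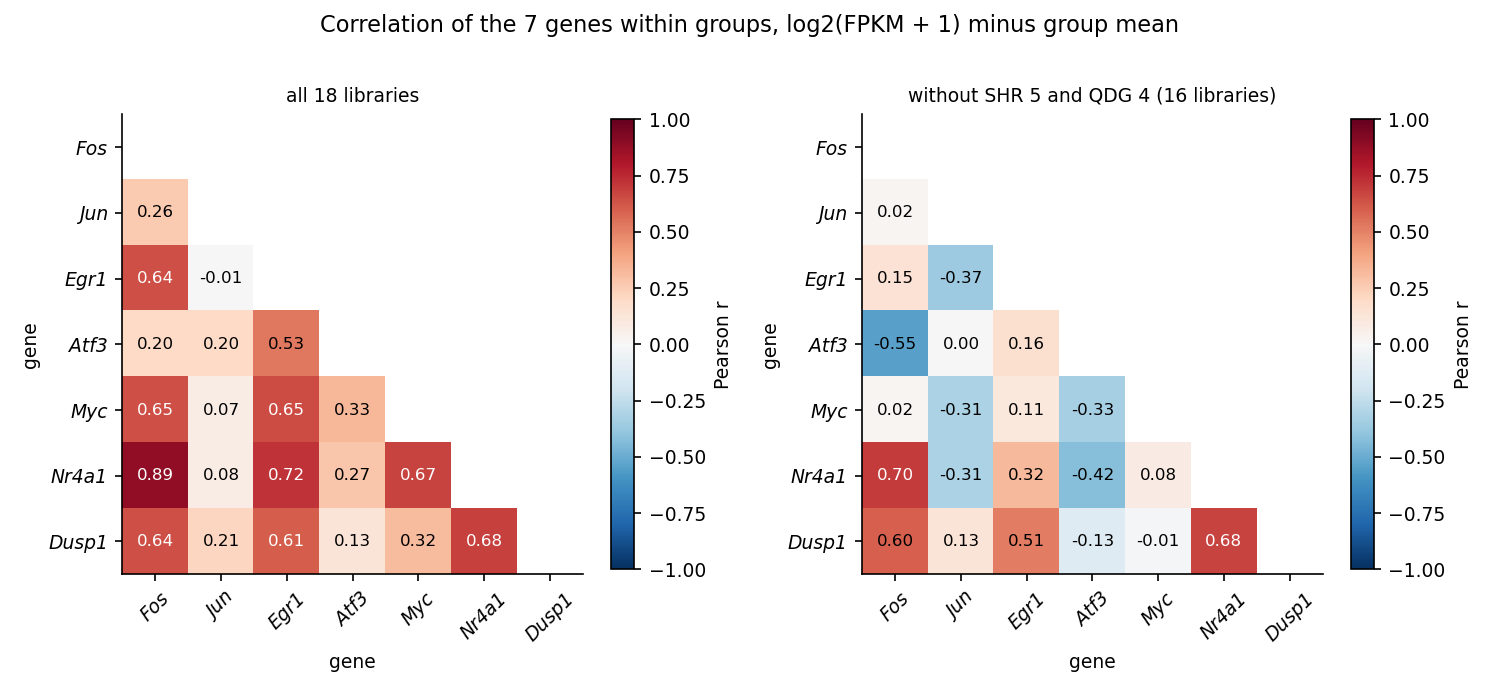
Pearson r between the 7 genes within groups (log2(FPKM + 1) minus group mean), over 18 libraries (left) and over 16 libraries without SHR replicate 5 and QDG replicate 4 (right). Fos with Nr4a1 goes to 0.70, Fos with Dusp1 to 0.60 and Nr4a1 with Dusp1 to 0.68 on the right, where the median over all 21 pairs is 0.02.

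Over the same centred values, the genes most like the mean of the 7 standardised genes were ENSRNOG00000012002 (r = 0.94) and ENSRNOG00000016064 (r = 0.92), and the most opposite were ENSRNOG00000025385 (r = -0.80) and ENSRNOG00000006898 (r = -0.78), as descriptions over 18 libraries. These 4 were picked as extremes over all genes kept, and their r without SHR replicate 5 and QDG replicate 4 was not computed. ENSRNOG00000012002 correlated at 0.77 with Fos, 0.78 with Nr4a1, 0.77 with Myc, 0.74 with Egr1, 0.71 with Dusp1, 0.50 with Atf3 and 0.39 with Jun. It averaged 26.7 ± 2.81 FPKM in QDG-treated SHR, 26.5 ± 2.46 in SHR and 25.6 ± 1.90 in WKY (SD, n = 6 each).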

How the data were processed

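Gene-level values of 18 libraries were used as deposited, 1 per gene and library. They are taken as FPKM, normalized by the authors to gene length and library size. The deposited headers name no unit. It rests on fractional values and on library sums of 598626 to 676288, and TPM with genes removed is possible. Relative depth, from ratios of low values (mean under 0.3 FPKM), was 0.879 to 1.09 of WKY replicate 1, and absolute depth is unknown. Per the submitters' processing notes limma was used, no version named. The sources used here give no aligner, counter, build, annotation or strand, so reads of overlapping genes cannot be told apart.

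The test kept 17397 genes that reached 1 FPKM in 6 or more libraries, all 7 genes described here among them. On log2(FPKM + 1), group means were compared with limma 3.58.1 in R 4.3.3 (intensity trend, robust moderation, group means over 18 libraries, two-sided, Benjamini-Hochberg over genes kept, threshold 0.05), checked on simulated data. Within-group relations used limma with 1 gene as covariate and two-sided permutation tests (100000 within groups, or all 720 pairings of 6) in Python 3.11.15. Genes of like pattern were the 2 highest and 2 lowest by r, as symbols were lacking. Lists of other immediate early genes, upstream kinases and cell types were not tested: 0 Ensembl identifiers are in the RefSeq table. The genes and lists were chosen with earlier results of these data known. Alternatives were scaling, filter, pseudocount, variance model, sample weights, 12 libraries alone, a replicate block and each library left out. Leaving out SHR replicate 5 and QDG replicate 4 together was added after seeing the data.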

Additional observations from a re-analysis of the deposited data

Results flagged for a closer look

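In 5 of the 21 groups of 6 values (7 genes in 3 groups), 1 library stood far from the others of its group, by Dixon's ratio of the gap to the whole range at the 95% level. The ratio was taken on FPKM without a log. Chance gives about 1 in 20 groups for normally distributed values, and the genes share libraries. Whether FPKM within groups are so distributed was not tested, and the ratio was not computed on the log scale. The count of 5 therefore cannot be set against that rate. SHR replicate 5 was far above the other SHR libraries in Fos (10.8 FPKM), Egr1 (13.4 FPKM) and Nr4a1 (16.7 FPKM). QDG replicate 4 was far above the other QDG-treated libraries in Myc (3.37 FPKM). WKY replicate 2 was far above the other WKY libraries in Atf3 (2.54 FPKM, with the others at 1.49 to 1.75).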

How the results depend on the processing

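For QDG-treated SHR against WKY, 6 of the 7 genes passed, and 5 to 6 with 1 library left out. With a filter at 5 FPKM, which removed Fos, Atf3 and Myc from the test, 4 passed. For SHR against WKY, 1 passed, 1 to 2 with 1 library left out, and 0 at the 5 FPKM filter, which removed Atf3. For QDG-treated SHR against SHR, 0 passed in every setting run. Of all genes, 51 passed for QDG-treated SHR against SHR. The split was 36 higher and 15 lower. Sample weights gave 104, quantile normalization 79, median centring 77 (46 higher, 31 lower), and no filter 30. The count was 29 to 69 with 1 library left out and 13 without both SHR replicate 5 and QDG replicate 4; the cause was not tested. Leaving out 1 library gave 3102 to 3703 genes for QDG-treated SHR against WKY; SHR against WKY gave 3773 to 4368. Signs changed only where no test passed. The log2 fold change of Jun for SHR against WKY ranged from -0.068 to 0.011 with 1 library left out. That of Myc for QDG-treated SHR against WKY was -0.039 with sample weights, -0.091 without both libraries and -0.091 to 0.085 with 1 left out. The slope of Atf3 on Fos was -0.30 without both libraries and -0.05 to 0.16 with 1 left out. The number of the other 6 genes called on Fos, 1 (Nr4a1), became 0 without both libraries and 0 to 1 with 1 left out. Atf3 in QDG-treated SHR against WKY also missed the threshold with no filter (adjusted p = 0.0551). With median centring Nr4a1 was still called on Fos (limma adjusted p = 0.0189). The median r, 0.33, was 0.26 with median centring, 0.023 without both libraries, 0.25 to 0.43 with 1 left out and 0.49 with a replicate block. The replicate numbers did not pair the libraries: same-numbered libraries of 2 groups correlated at -0.06 to 0.19, and for 5 of 18 the best match carried the same number. A replicate block gave 4760, 40 and 4028 genes for SHR against WKY, QDG-treated SHR against SHR and QDG-treated SHR against WKY, and 1, 0 and 6 of the 7.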
